A study of Homo sapiens with 6 samples.

Results

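Insulin signalling was represented here by 10 genes, the receptors INSR and IGF1R, the docking proteins IRS1 and IRS2, the phosphatidylinositol 3-kinase subunits PIK3R1 and PIK3CA, the kinases AKT1 and AKT2, and FOXO1 and GSK3B, which AKT phosphorylates. Their regions were every entry that carried 1 of these gene symbols in 4 deposited lists of regions occupied by RNA polymerase II. That gave 280 of 271336 regions, with 53 of 46045 in the SHP-1-WT RPB1 list, 43 of 41605 in the SHP-1-KO RPB1 list, 101 of 102674 in the SHP-1-WT phospho-Ser2 list and 83 of 81012 in the SHP-1-KO phospho-Ser2 list. At least 1 region was listed for 9 of the 10 genes, and IRS2 had none.

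All cells were HepG2, a cell line from a human liver tumor, and were untreated. The SHP-1-WT line is labelled a CRISPR control, and in the SHP-1-KO line CRISPR/Cas9 had been directed at exons that encode the phosphatase domain of SHP-1, the product of PTPN6. The study describes its lines with and without the deletion as clonal, so a difference between the lists cannot be told apart from a difference between clones. RPB1, the largest subunit of RNA polymerase II, and RPB1 phosphorylated at Ser2 of its C-terminal repeats (phospho-Ser2) were each profiled by ChIP-seq in 1 library per genotype, with input DNA of the same cells as the background. The libraries had no replicates and their sequencing depth is not known, so no test between genotypes was possible. SHP-1-WT is called control and SHP-1-KO knockout in what follows. RPB1 occupancy at PTPN6 does not measure SHP-1 protein and does not check the genotype labels.

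Insulin binding activates the receptor tyrosine kinase, which phosphorylates IRS proteins. These recruit phosphatidylinositol 3-kinase, and its lipid product leads to activation of AKT. In hepatocytes, AKT excludes FOXO1 from the nucleus and inhibits GSK3B, which lowers transcription of gluconeogenic genes and favours glycogen synthesis. RNA polymerase II gathers near gene starts, and phosphorylation at Ser2 accompanies elongation and is known to be densest towards the ends of genes.

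The DNA under the regions that the results turn on is given first. The stretch before the INSR start, the sites in intron 2 of INSR and beyond its end, and the stretches before the starts of PIK3R1 and FOXO1 lay in RPB1 regions. The stretch before the IRS2 start is shown because no region was listed there. All are written 5′ to 3′ on the strand of the gene. Capitals mark 4 motifs searched on both strands, the FOXO core TGTTTAC, the STAT5 core TTCNNNGAA, the GC box GGGCGG and the TATA box TATAAA. Neighbouring GC boxes may overlap. The upstream stretches come from RefSeq promoters of GRCh38.p14, at chr19:7294415-7294664 for INSR, chr13:109786584-109786833 for IRS2, chr5:68215506-68215739 for PIK3R1, chr13:40666642-40666891 for FOXO1 and chr3:179148196-179148225 for PIK3CA. The stretch of PIK3CA is limited to 30 bases around its FOXO core because an annotated exon begins after the first 7 of the 250 bases before its start. These 30 bases lie before the start used here, 179148357, but after the first base of the annotated gene, 179148114. Both other INSR stretches are 200 bases of hg38 centred on the summit of the control RPB1 region, at chr19:7198255-7198454 in intron 2 and chr19:7099021-7099220 beyond the gene.
INSR upstream: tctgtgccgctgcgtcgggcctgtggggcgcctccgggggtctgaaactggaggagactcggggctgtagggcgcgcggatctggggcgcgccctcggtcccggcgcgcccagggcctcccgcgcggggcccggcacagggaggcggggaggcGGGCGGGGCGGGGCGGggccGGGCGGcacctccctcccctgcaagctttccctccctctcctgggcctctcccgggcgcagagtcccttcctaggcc
INSR intron 2: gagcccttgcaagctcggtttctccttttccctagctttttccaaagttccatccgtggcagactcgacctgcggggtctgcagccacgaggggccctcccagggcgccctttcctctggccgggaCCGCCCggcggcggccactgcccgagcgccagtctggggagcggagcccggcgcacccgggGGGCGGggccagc
INSR distal: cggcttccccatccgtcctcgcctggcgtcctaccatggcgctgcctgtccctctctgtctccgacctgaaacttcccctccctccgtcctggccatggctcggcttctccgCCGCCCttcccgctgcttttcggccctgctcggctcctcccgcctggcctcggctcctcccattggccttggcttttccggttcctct
IRS2 upstream: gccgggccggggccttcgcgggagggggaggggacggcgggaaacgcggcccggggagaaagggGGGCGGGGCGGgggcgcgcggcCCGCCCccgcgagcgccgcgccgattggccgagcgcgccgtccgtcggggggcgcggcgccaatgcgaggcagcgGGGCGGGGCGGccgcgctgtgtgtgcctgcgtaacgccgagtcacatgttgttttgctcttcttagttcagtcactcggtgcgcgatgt
PIK3R1 upstream: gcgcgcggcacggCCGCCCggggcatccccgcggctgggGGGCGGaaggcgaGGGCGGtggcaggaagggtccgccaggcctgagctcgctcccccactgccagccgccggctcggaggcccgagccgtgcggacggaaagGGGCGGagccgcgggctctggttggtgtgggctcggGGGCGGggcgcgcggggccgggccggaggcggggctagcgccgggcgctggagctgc
FOXO1 upstream: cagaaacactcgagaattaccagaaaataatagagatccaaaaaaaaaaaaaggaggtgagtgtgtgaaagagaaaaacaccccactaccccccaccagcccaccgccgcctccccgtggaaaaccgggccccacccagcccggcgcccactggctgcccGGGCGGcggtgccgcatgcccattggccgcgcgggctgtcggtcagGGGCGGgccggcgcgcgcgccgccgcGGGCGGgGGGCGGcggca
PIK3CA upstream: gagttcgttgttTGTTTACacgatgtgagc

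The GC box, which Sp family factors bind, was present within 250 bases before the start of all 10 genes, IRS2 included, and in 42.5% of 34943 RefSeq promoters. A FOXO core was found in 1 of the 10, PIK3CA, beside 2.98% of all promoters. No member had a STAT5 core or a TATA box in this window, where 6.56% and 10.8% of all promoters had one. The windows of the members held between 57.6% and 83.2% G and C, and the median of all promoters was 58%. The 2 INSR sites away from the start were also rich in G and C, with 71.5% in intron 2 and 67.5% beyond the gene beside a median of 51.5% for summit windows of control RPB1 regions in introns and intergenic DNA. Both held a GC box, which 10.7% of those 17355 windows did. A motif match describes the letters and does not show that a factor is bound.

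Most RPB1 regions of the members that were listed in knockout cells were also listed in control cells. Of the 43 regions in the knockout list, 40 (93.0%, 95% Wilson interval 81.4% to 97.6%) overlapped a control region by at least 1 bp, and of the 53 in the control list, 34 (64.2%, 50.7% to 75.7%) overlapped a knockout region. The share without a partner was 35.8% of the members' control regions beside 38.1% of all, and 6.98% of their knockout regions beside 25.1% of all. The members' control regions without a partner were weak, with a median fold enrichment over input of 4.51 and a highest value of 6.25, where those with a partner had a median of 8.11. The medians over all control RPB1 regions were 4.51 without and 8.35 with a partner. Of 101 control phospho-Ser2 regions, 61 (60.4%) had no knockout partner, with 47.8% among all regions, and of 83 knockout phospho-Ser2 regions, 33 (39.8%) had no control partner, with 30.1% among all. Those intervals cover counting error only, and regions of 1 gene are not independent.

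No member lost or gained all its regions at its position in the genome. All 8 genes with a control RPB1 region also had one in the knockout list, where 9.09% of all genes with a control region had none, and the same held for the 9 genes with phospho-Ser2 regions, where 14.7% of all genes had none. The strongest RPB1 region lay within 1 kb of the main start, the start of the canonical GENCODE transcript, in 7 of 8 members in control cells (73.7% of all genes over 10 kb) and in 7 of 9 in knockout cells (75.2%). The exceptions were INSR in both lists and AKT2 in the knockout list. The strongest phospho-Ser2 region lay within 5 kb of the main end in 6 of 9 members in each genotype, beside 37.0% of all genes in control and 37.8% in knockout cells. In both genotypes the exceptions were IRS1, PIK3CA and GSK3B.

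Fold enrichments were set against the whole lists before genes were compared, because the strongest RPB1 region of a gene was lower in the knockout list for most genes, with a median knockout to control ratio of 0.742 over 12877 genes. A gene was called lower or higher when its ratio lay more than 1.5-fold from that median. By this rule 0 of 8 members were lower (9.64% of all genes) and 0 were higher (11.3%). The strongest region within 1 kb of the main start, taken whatever symbol it carried, had a median ratio of 0.718 over 11483 genes and of 0.669 over 9 members. Of these, 1 was lower, INSR (8.63% of all genes), and 0 were higher (8.52%).

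**Figure D1:**
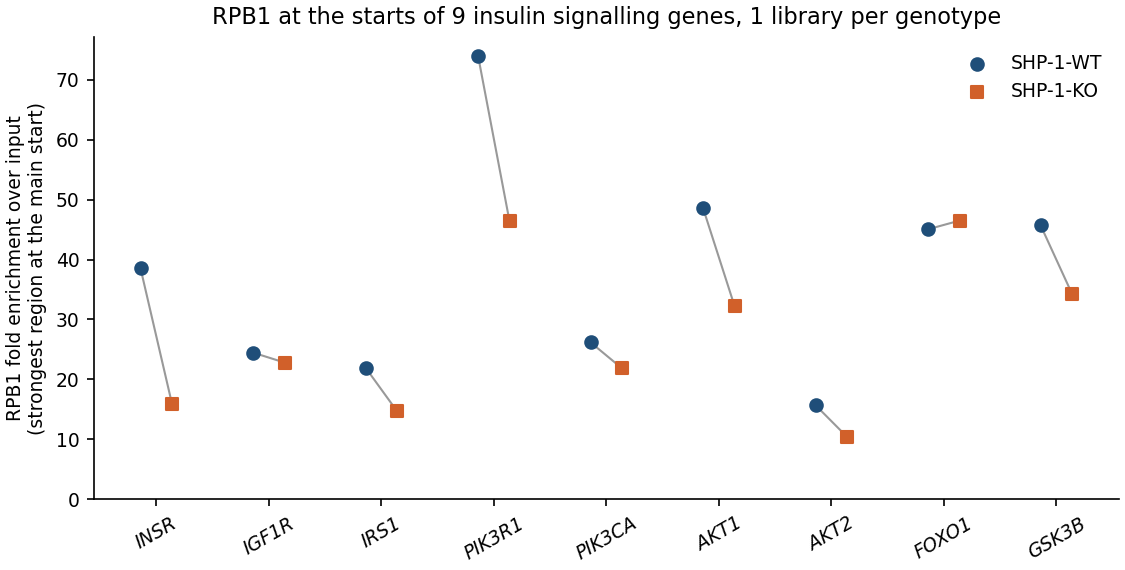
Fold enrichment of RPB1 over input (vertical axis) for the strongest region within 1 kb of the main start of 9 members, in control (SHP-1-WT, circles) and knockout cells (SHP-1-KO, squares), 1 library each and so without error bars. INSR was at 38.6 and 15.9, FOXO1 at 45.1 and 46.5, and the other 7 genes were lower in knockout cells, with ratios from 0.626 to 0.932.

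INSR encodes the insulin receptor and lies on the reverse strand at chr19:7112255-7294414. Its strong RPB1 regions sat at 3 separate places, and a further region of 3.14 beyond the gene was listed in control cells only. At the start, the region had a fold enrichment of 38.6 in control (chr19:7293182-7295126) and of 15.9 in knockout cells (chr19:7293545-7295068), a ratio of 0.413. The value relative to the median of all starts was -0.80 on the log2 scale, and 4.19% of genes had a ratio as low or lower. In intron 2, 96059 bp from the start, the region had 38.0 in control (chr19:7197218-7199165) and 27.8 in knockout cells (chr19:7197221-7199070). The intergenic region 13144 bp beyond the end of the gene had 40.4 (chr19:7098499-7099860) and 39.7 (chr19:7098456-7099680). The 3 strong INSR regions thus ranged from 38.0 to 40.4 in control cells and from 15.9 to 39.7 in knockout cells. By its strongest region INSR was not called, either with the intergenic region (40.4 and 39.7) or, by position, without it (38.6 and 27.8). Both sites away from the start also carried a phospho-Ser2 region in each genotype, with 3.60 in control and 3.74 in knockout cells in intron 2 and with 5.99 and 4.48 beyond the gene.

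Phospho-Ser2 over INSR was listed at fewer places in knockout cells, both inside the gene and past its end. From 1 kb past the start to 10 kb before the end, 15 regions were listed in control cells, of 2.58 to 4.83 fold enrichment, and 1 in knockout cells, of 3.74. That 1 region, in intron 2, was the partner of the only one of the 15 that had any, where 47.8% of all control phospho-Ser2 regions had none. The latter share is over regions of any strength, and those without a partner were weaker, with a median of 3.44 beside 4.08. A share for regions as weak as the 15 was not calculated. Most of the 15 had a −log10 q-value under 5, and the knockout region had 4.16. Across the end of the gene, control cells had 1 region of 2955 bp with a fold enrichment of 6.46 (chr19:7111511-7114465), and knockout cells had 4 shorter ones within it, the strongest with 6.19 (chr19:7112044-7113000). Just past it the control list held 3 further regions without a partner, the strongest with 5.59 (chr19:7110708-7111458). Over all INSR regions, phospho-Ser2 covered 8824 bp in control and 2798 bp in knockout cells, a ratio of 0.317. When regions with a −log10 q-value under 5 were left out, the lengths were 5478 bp and 2231 bp. The knockout list was shorter as a whole, and within 1 Mb of INSR, the gene left out, it held 156 phospho-Ser2 regions where the control list held 186.

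**Figure D2:**
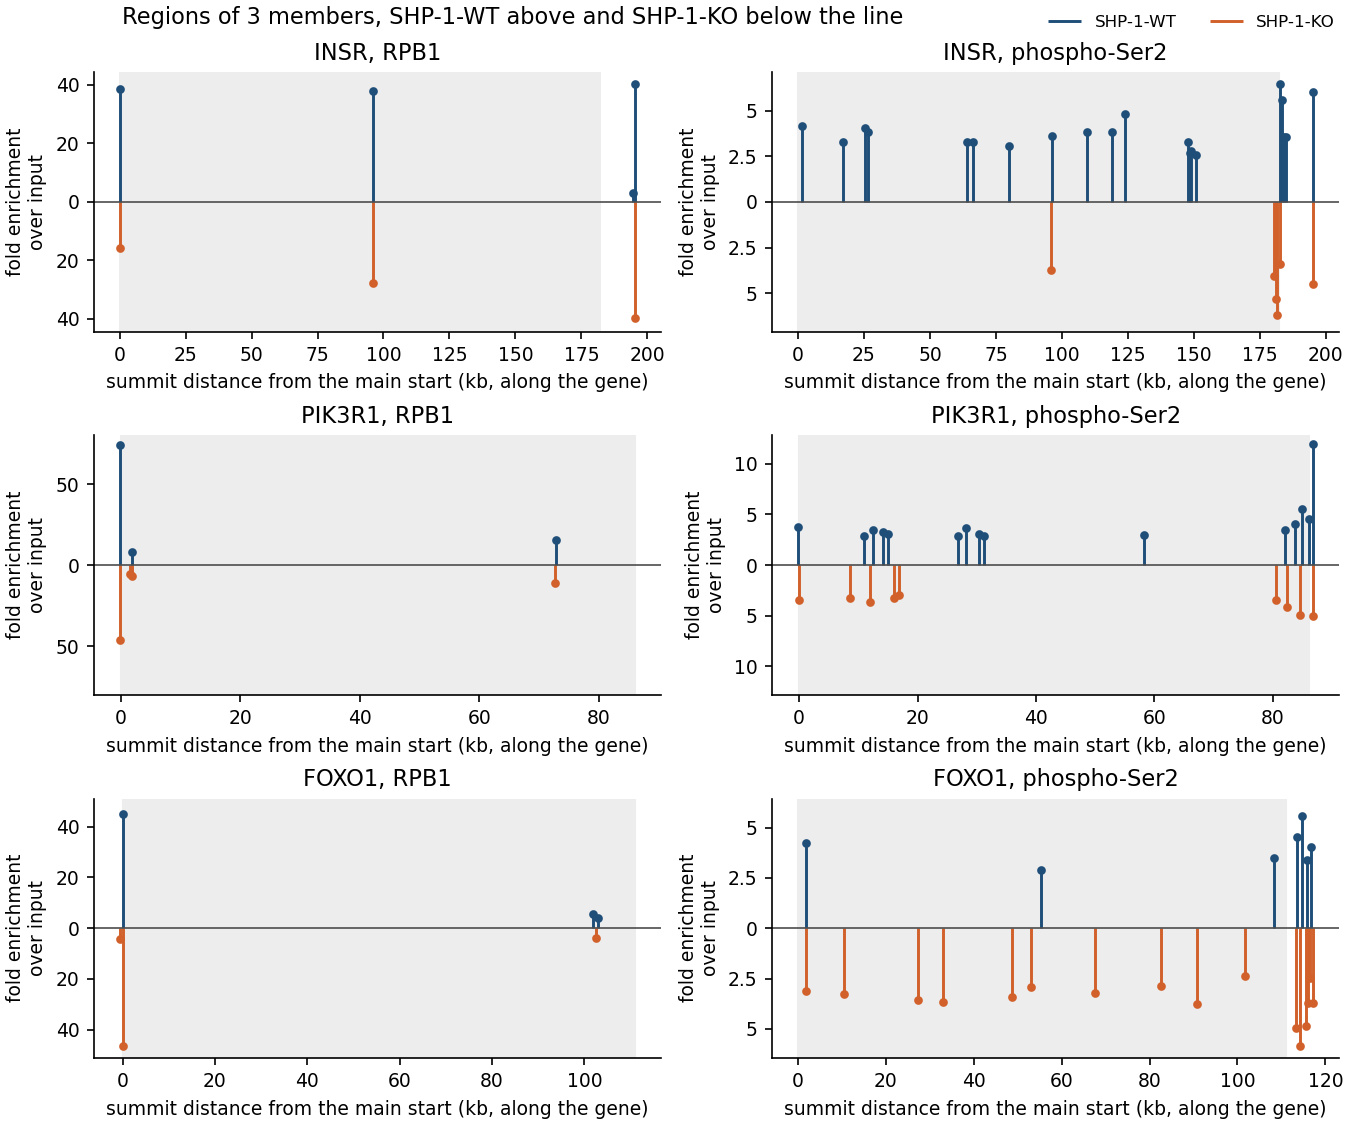
Regions of INSR, PIK3R1 and FOXO1 by the distance of their summit from the main start in kb (horizontal axis) and their fold enrichment over input (vertical axis), for RPB1 on the left and phospho-Ser2 on the right, with control (SHP-1-WT) above and knockout (SHP-1-KO) below the line and the gene shaded. From 1 kb past the start to 10 kb before the end, INSR shows 15 phospho-Ser2 regions above and 1 below, and FOXO1 shows 2 above and 9 below.

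IGF1R encodes the receptor for insulin-like growth factor 1 and lies on the forward strand at chr15:98648539-98964530. RPB1 at its start was 24.5 in control (chr15:98647248-98649499) and 22.8 in knockout cells (chr15:98647223-98649311), a ratio of 0.932 and thus nearer to 1 than the median of all starts. The region also overlapped the antisense gene IRAIN. A second region just inside the gene was shorter in knockout cells, with 1515 bp and a fold enrichment of 8.85 in control and 346 bp and 5.49 in knockout cells. Phospho-Ser2 was listed at the end of the gene in both genotypes, with 5.83 and 5.77 at a summit 662 bp and 627 bp past the main end. From 1 kb past the start to 10 kb before the end the control list held 3 regions, each of 3.30, and the knockout list held 0. Among all control phospho-Ser2 regions, of any strength, 47.8% had no partner. In the whole gene body of IGF1R there were 6 and 1. The phospho-Ser2 length was 3150 bp and 1547 bp, a ratio of 0.491. When regions with a −log10 q-value under 5 were left out, the lengths were 1062 bp and 1213 bp and IGF1R was not called. Within 1 Mb of the gene, 21 phospho-Ser2 regions were listed in control and 12 in knockout cells, so fewer regions were listed around IGF1R as well.

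IRS1, a docking protein that receptors phosphorylate on tyrosine, lies on the reverse strand at chr2:226731312-226799820. Its start had an RPB1 fold enrichment of 22.0 in control (chr2:226798575-226801800) and of 14.7 in knockout cells (chr2:226798924-226800548). That ratio of 0.669 equalled the median of the 9 members at the start. The RPB1 regions of IRS1 covered 6759 bp and 3141 bp, which made it the 1 member of 8 called lower in RPB1 length (15.8% of all genes, with 10.4% higher and 0 members higher). A knockout region just before the start, chr2:226800759-226801760, carried the symbol RHBDD1. With regions placed by position the lengths were 6759 bp and 4143 bp and the call was lost, while IGF1R, with 4204 bp and 2435 bp, was then called lower. The share of all genes called by position was not counted.

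The strongest phospho-Ser2 region of IRS1 was not at its end. It lay 14916 bp from the start with 4.09 in control cells and 17263 bp from the start with 4.64 in knockout cells, and near the end only the control list held regions, of 2.10 and 2.07. IRS1 had 18 phospho-Ser2 regions over 7815 bp in control and 9 over 2965 bp in knockout cells. Apart from those near the end, the summits lay up to 24997 bp from the start in control and up to 18939 bp in knockout cells, in the first part of the gene. Around IRS1 the knockout list was not the shorter one, with 39 phospho-Ser2 regions within 1 Mb in control and 44 in knockout cells.

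IRS2, the other docking protein prominent in liver, lies on the reverse strand at chr13:109752695-109786583 and had no RPB1 and no phospho-Ser2 region in either genotype. The nearest RPB1 regions were those of LIG4 1534 kb to 1 side and of RAB20 774 kb to the other, which left 2.34 Mb without a region in both RPB1 lists. In the phospho-Ser2 lists the empty stretch was 2.30 Mb in control and 2.33 Mb in knockout cells. Since the lists hold only regions that passed the caller, they give no level for IRS2, and whether the stretch was covered by reads was not tested.

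PIK3R1 encodes the p85α regulatory subunit, which binds phosphorylated IRS proteins, and lies on the forward strand at chr5:68215740-68301821. It had the strongest RPB1 region of the members in control cells, with a fold enrichment of 74.0 (chr5:68214759-68217174) and rank 305 of 46045, and with 46.3 (chr5:68214794-68216967) it was rank 797 of 41605 in knockout cells. The ratio of 0.626 was within 1.5-fold of the median. The summit lay 191 bp before the main start in control and 178 bp before it in knockout cells. A second RPB1 region covered the RefSeq start of shorter transcripts at position 68288519, with 15.8 (chr5:68288148-68288899) and 11.1 (chr5:68288328-68288864). Both starts were therefore occupied in both genotypes. Both were lower in knockout cells, as most starts were, with a median ratio of 0.718 over all main starts.

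PIK3R1 was also the 1 member of 9 called lower in its strongest phospho-Ser2 region (8.35% of all genes, with 8.44% higher and 0 members higher). That region lay just past the end of the gene, with 11.9 in control (chr5:68302328-68303555) and 4.99 in knockout cells (chr5:68302384-68303353), a ratio of 0.418. Among the strongest phospho-Ser2 regions within 5 kb of the main end of 7330 genes, 0.914% had a ratio as low or lower, 8.58% were called lower and 8.54% higher. The summit was 761 bp and 750 bp past the end, so the same place was compared. Inside the annotated gene the strongest region had 5.58 in control and 4.95 in knockout cells, and with regions past the gene left out PIK3R1 was not called. Of its inner regions, 0 of 9 in control and 0 of 4 in knockout cells had a partner. Among all phospho-Ser2 regions, of any strength, 47.8% in control and 30.1% in knockout cells had none. These inner regions were weak, of 2.82 to 3.66 fold enrichment in control and 2.94 to 3.65 in knockout cells. Whether their places differed between the genotypes was not tested.

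PIK3CA, the p110α catalytic subunit, lies on the forward strand at chr3:179148114-179240093. By symbol it had an RPB1 region in the knockout list alone, with 21.8 (chr3:179148043-179149225). The control region at the same start had 26.2 (chr3:179147869-179149257) and carried the symbol of the divergent transcript LOC101928739. The start was therefore occupied in both genotypes, with a ratio of 0.834. The FOXO core printed for PIK3CA lies inside both regions. Phospho-Ser2 was strongest 9085 bp and 8931 bp before the main end, with 5.60 in control (chr3:179230338-179231324) and 5.88 in knockout cells (chr3:179230855-179231383), and regions further on carried the symbol of the overlapping gene KCNMB3.

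AKT1, the more widely expressed of both kinases, lies on the reverse strand at chr14:104769349-104795751. RPB1 at its start was 48.6 in control (chr14:104794652-104796784) and 32.2 in knockout cells (chr14:104795485-104796375), a ratio of 0.663. AKT1 had more RPB1 regions than any other member, 19 over 16872 bp and 16 over 11315 bp, running across the gene and past its end. The region past the end, with 35.4 (chr14:104765223-104768098) and 16.0 (chr14:104765145-104768144), overlapped SIVA1, which runs the other way, and ChIP-seq does not give the strand. A phospho-Ser2 region over the same stretch had 11.8 in control and 5.60 in knockout cells. Phospho-Ser2 across the end of AKT1 formed 1 region of 8056 bp with 7.94 in control (chr14:104768553-104776608) and, in knockout cells, a region of 4709 bp with 10.0 (chr14:104768341-104773049) and 2 shorter ones. The strongest phospho-Ser2 region of AKT1 was therefore at a different place in each genotype, and in control cells it lay over SIVA1. The phospho-Ser2 length by symbol was 11492 bp and 11202 bp, the closest pair among the 9 members.

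AKT2, the isoform linked to insulin action on glucose, lies on the reverse strand at chr19:40230317-40285536 and had the lowest RPB1 signal at its start of the 9 members. It was 15.7 in control (chr19:40284360-40286010) and 10.4 in knockout cells (chr19:40284203-40285995). A region at its other end had 14.9 and 13.3 and was the strongest of AKT2 in knockout cells. The number of RPB1 regions was 7 in control and 2 in knockout cells, and 1 further knockout region carried the symbol MIR641. Phospho-Ser2 regions with the symbol AKT2 covered 1808 bp and 748 bp, a ratio of 0.414. Of the 4 inner ones in control cells, of 3.30 to 4.06 fold enrichment, 0 had a partner. Among all control phospho-Ser2 regions, of any strength, 47.8% had none. The longest phospho-Ser2 region on the gene, at its end, carried the symbol CNTD2, with 6.43 over chr19:40228917-40232392 in control and 9.31 over chr19:40228896-40232287 in knockout cells. By position, which adds this region and those with the symbol MIR641, AKT2 covered 5766 bp and 4542 bp and was not called lower in length. At the main end, 1 of 8 members was called higher in phospho-Ser2, beside 8.54% of 7330 genes. It was AKT2, through the region with the symbol CNTD2.

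FOXO1, the transcription factor that insulin restrains in liver, lies on the reverse strand at chr13:40555667-40666641. It was the only member with a start ratio above 1, with RPB1 at 45.1 in control (chr13:40664111-40667112) and 46.5 in knockout cells (chr13:40664263-40667061), at rank 2371 and rank 784 of their lists. Its log2 ratio was 0.52 above the median of all starts, short of the 1.5-fold rule. FOXO1 was also the only member with more phospho-Ser2 length in knockout cells by symbol, with 7 regions over 3935 bp in control and 16 over 6197 bp in knockout cells, a ratio of 1.57. From 1 kb past the start to 10 kb before the end the control list held 2 regions and the knockout list 9, of 2.89 to 3.76 fold enrichment. Of these 1 was shared, where 47.8% of all control and 30.1% of all knockout phospho-Ser2 regions, of any strength, had no partner. In the whole gene body of FOXO1 there were 3 and 10. The strongest FOXO1 regions lay past the annotated end and were at 5.58 (chr13:40551904-40552188) and 5.87 (chr13:40551880-40552796). A noncoding gene on the same strand covers that stretch and the last part of FOXO1. Within 1 Mb around FOXO1 the phospho-Ser2 lists went the other way, from 84 regions in control to 48 in knockout cells.

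GSK3B, the kinase that inhibits glycogen synthase, lies on the reverse strand at chr3:119821321-120094994. Its RPB1 region had 45.7 in control (chr3:120093657-120096265) and 34.2 in knockout cells (chr3:120093580-120096333), a ratio of 0.749. The summit was 875 bp and 881 bp before the main start, over the divergent transcript GSK3B-DT. All weaker RPB1 regions with the symbol GSK3B lay further into GSK3B-DT. So did the strongest phospho-Ser2 region, with 6.02 in control (chr3:120102108-120104690) and 7.34 in knockout cells (chr3:120102697-120103772). At the main end, regions with the symbol NR1I2 reached 7.62 in control and 5.72 in knockout cells, so the order of the genotypes was the other way there. From 1 kb past the start to 10 kb before the end, 2 phospho-Ser2 regions with the symbol GSK3B were listed in control and 9 in knockout cells, of 2.92 to 3.70 fold enrichment. Of these 1 was shared, where 47.8% of all control and 30.1% of all knockout phospho-Ser2 regions, of any strength, had no partner.

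**Figure D3:**
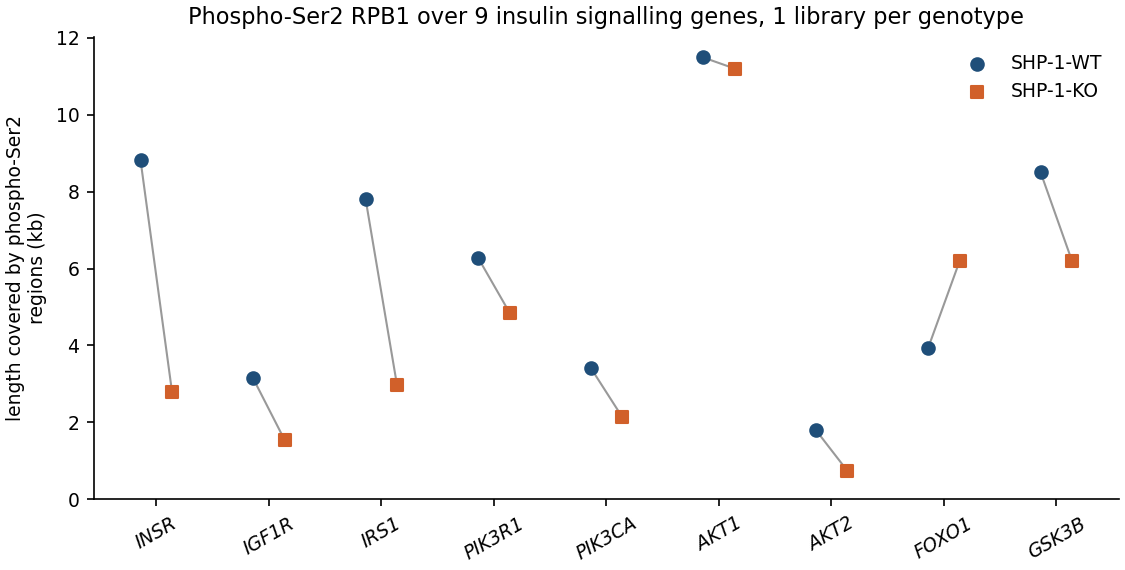
Length covered by phospho-Ser2 regions in kb (vertical axis) for each of 9 members by gene symbol, in control (SHP-1-WT, circles) and knockout cells (SHP-1-KO, squares), 1 library each. FOXO1 alone was longer in knockout cells, and INSR and IRS1 had the lowest ratios of the 9, 0.317 and 0.379.

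Across the 9 members with phospho-Ser2 regions, the covered length differed more than the height. The median ratio of the strongest region was 0.990 beside an all-gene median of 0.936, and the median log2 ratio of the length was -0.67 beside -0.32. By length, 4 members were lower, INSR, IGF1R, IRS1 and AKT2 (24.1% of all genes), and 1 was higher, FOXO1 (14.7%). In the gene body alone, from 1 kb past the start to the end and whatever the symbol, 3 of 9 were lower, INSR, IGF1R and IRS1 (25.2% of 6534 genes over 10 kb), and 2 were higher, FOXO1 and GSK3B (14.3%). The body values of GSK3B include regions at its end that carried the symbol NR1I2. By symbol and without regions of a −log10 q-value under 5, GSK3B was called lower, but over a different stretch. Its lengths were then 6853 bp in control and 3214 bp in knockout cells. They came from regions before the main start, over GSK3B-DT, apart from a control region of 276 bp at the start. INSR and IRS1 were also lower and FOXO1 higher in length when regions with a −log10 q-value under 5 were left out and when regions were placed by position. The share of all genes called was not counted under either alternative. With the q-value limit the FOXO1 lengths were 2129 bp in control and 3470 bp in knockout cells. That knockout length came only from regions past the annotated end, since no knockout region inside FOXO1 passed the limit.

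**Figure D4:**
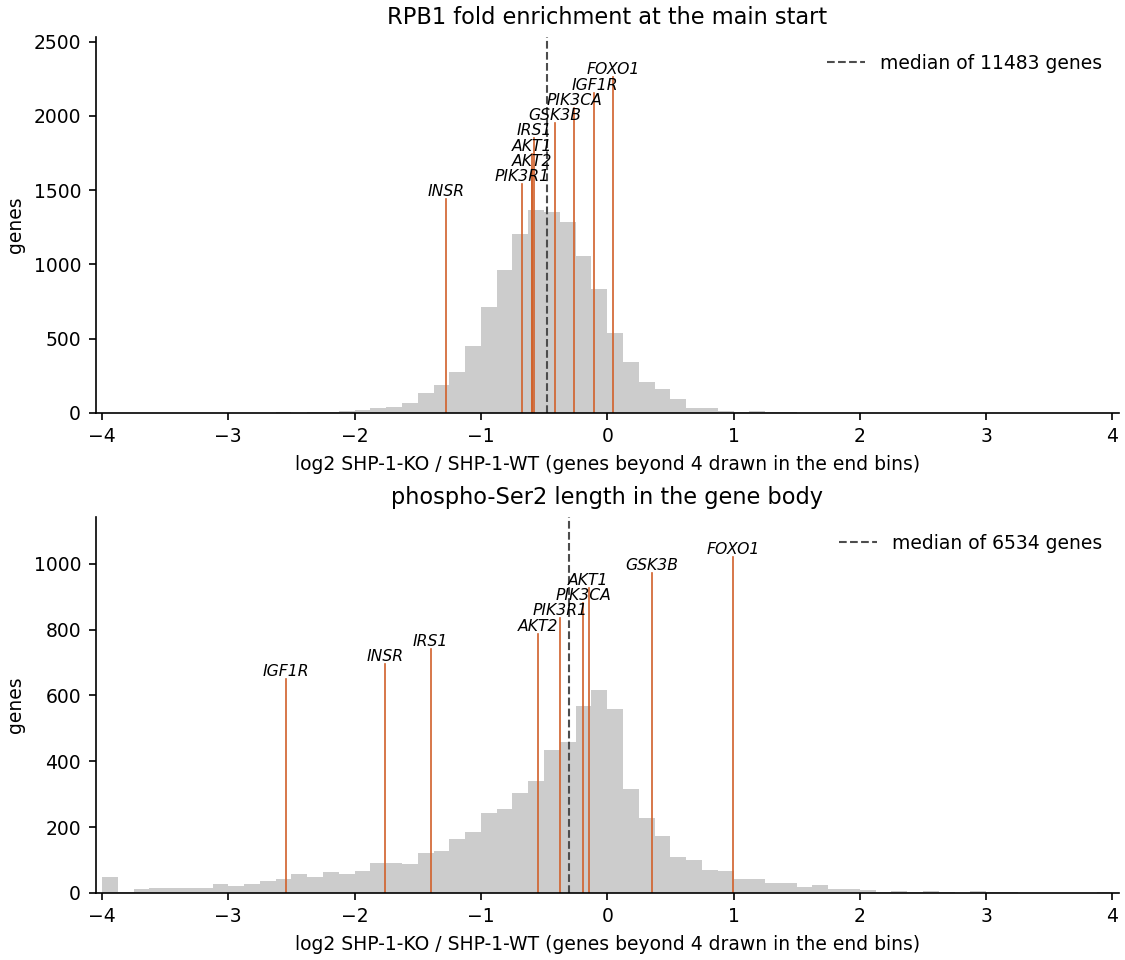
Number of genes (vertical axis) by log2 knockout to control ratio (horizontal axis) for RPB1 at the main start (top) and phospho-Ser2 length in the gene body (bottom), with the median dashed and each of 9 members marked by a line whose height has no meaning. INSR lay at -1.28 at the start and at -1.76 in the body, and FOXO1 at 0.05 and 1.00.

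Of 60 further genes of the pathway, 48 had RPB1 regions and 45 had phospho-Ser2 regions in both genotypes. By the strongest RPB1 region 3 of the 48 were lower (9.64% of all genes) and 4 were higher (11.3%), with the median ratio at 0.718 beside 0.742 for all genes. The 3 lower ones were SOS1, a RAS exchange factor (58.9 in control and 21.1 in knockout cells), the regulatory subunit PIK3R2 (35.4 and 13.3) and SOCS3, which blocks cytokine and insulin receptors (27.3 and 10.6). Among the higher ones were HRAS (6.51 and 33.3) and AKT1S1 (5.64 and 7.70). With regions placed by position HRAS had 44.7 and 33.3 and AKT1S1 31.5 and 16.8, so that both were then lower in knockout cells.

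By phospho-Ser2 length, 11 of the 45 were lower (24.1% of all genes) and 8 were higher (14.7%). The lowest ratios were those of PDPK1, which phosphorylates AKT, PHLPP1, which dephosphorylates it, and the AKT substrate BAD. The highest were those of MLST8 and RPS6KB1 of the mTOR arm and of the AKT inhibitor TRIB3. By position, the lengths of TRIB3 were 20124 bp in control and 21765 bp in knockout cells, those of BAD were 10337 bp in control and 6404 bp in knockout cells, those of PDPK1 were 6677 bp and 2762 bp, and those of RPS6KB1 were 3164 bp and 6226 bp. By group and by symbol, 1 of 6 adaptors and docking proteins was lower and 1 higher, 2 of 10 inhibitors of the pathway were lower and 1 higher, and 3 of 6 phosphatidylinositol 3-kinase subunits with PDPK1 were lower and 0 higher. Of the AKT group with its substrates 3 of 7 were lower and 1 higher, of the mTOR arm 1 of 7 was lower and 4 higher, of the RAS arm 1 of 5 was lower and 1 higher, and of the liver outputs 0 of 4 were called. Differences between these groups were not tested.

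Among the pathway genes listed in 1 genotype alone, PCK1, the gluconeogenic enzyme that FOXO1 activates and insulin represses, had 6 RPB1 regions of up to 6.96 and 3 phospho-Ser2 regions of up to 7.25 in control cells and none in knockout cells by symbol and by position. FOXO6 had 1 RPB1 region of 4.01 in control cells, and GRB14, an adaptor that inhibits the receptor, had 1 of 6.85 in knockout cells. For phospho-Ser2, GAB1, MAPKAP1, MAP2K1 and MAPK3 had regions in the control list alone and GRB10 in the knockout list alone by symbol. With PCK1 that made 5 of 50 pathway genes with control regions and none in knockout cells, beside 14.7% of all genes, and for RPB1 it was 2 of 50 beside 9.09%. By position, GAB1 had no phospho-Ser2 region in either genotype and MAP2K1 had phospho-Ser2 regions in both genotypes, of up to 6.86 and 7.05.

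The labelled cell type was compared with its markers. Of 10 hepatocyte and hepatoma genes, 9 had regions in all 4 lists and APOA1 lacked one in the knockout RPB1 list. Of 11 markers of lymphocytes, endothelium, stellate cells and neurons, 8 had no region in any list, SNAP25 had weak RPB1 regions of 6.78 in control and 4.81 in knockout cells, and PECAM1 had regions in all 4 lists, with at most 9.75 fold enrichment.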

How the data were processed

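ChIP-seq of RPB1 and phospho-Ser2 RPB1 from the HepG2 lines labelled SHP-1 wild type (control) and knockout was analysed, with 1 library per antibody and genotype. The input libraries were not analysed here. The authors trimmed reads with Trimmomatic, aligned them to GRCh38/hg38 with BWA and used MACS2 to find narrow peaks, library by library, with the matching input as background, and tool versions are not given in the sources used here. The deposited lists give every region a fold enrichment over input, which is a ratio, and its −log10 p-value and −log10 q-value (lowest 1.31), with a class and a gene symbol that the authors assigned. A further deposited table with the authors' own comparison of RPB1 between genotypes, p-values and window numbers, was not used. All 271336 regions lay inside the hg38 chromosomes.

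Per gene symbol, the strongest fold enrichment and the merged length were taken in each list, and the all-gene median log2 ratio was removed before the 1.5-fold rule was applied. Main starts and ends are those of canonical transcripts in GENCODE release 44. Placement by position used the gene and 3 kb before its start. The measures at the main start, at the main end and in the gene body were chosen after the data had been seen. The members and lists were chosen with earlier results of these data known. All 10 members are named, and of the pathway list up to 3 genes in each direction by RPB1 strength and by phospho-Ser2 length, with every gene listed in 1 genotype only. Some results that the rule or the marker list would name are not reported here. Overlap and ratio functions were tested on simulated data. Python 3.11.15, pandas 2.3.3, NumPy 2.4.6, SciPy 1.17.1, pyfaidx 0.9.0.4 and matplotlib 3.10.9 were used. Read depth is unknown, so the precision of each value is unknown too. The alternatives were leaving out regions with a −log10 q-value under 5, a reciprocal overlap of 50%, placement by position, merged regions, promoter regions only and the sum of fold enrichment times length.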

Additional observations from a re-analysis of the deposited data

How the results depend on the processing

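With 1 library per group and lists that differ in total number, no difference has a replicate check, and thresholds of the peak caller act on every length and count. The shares of overlapping regions stayed inside their 95% intervals without regions of a −log10 q-value under 5, with placement by position and with merged regions. With a reciprocal overlap of 50%, they were 41.5% and 53.5% for RPB1 in control and knockout cells and 22.8% and 27.7% for phospho-Ser2. The median log2 ratio of the members' strongest RPB1 region, -0.33, was -0.42 by position, -0.59 in promoter regions, -0.77 as fold enrichment times length and -0.58 at the main start, and lay above the all-gene median in 2 of 5 alternatives. The RPB1 length, -0.41, was -0.40 with the stricter q-value, -0.23 by position and -0.49 in promoter regions. The strongest phospho-Ser2 region, -0.015, turned to 0.071 by position and 0.23 in promoter regions (5 members), and was -0.80 as fold enrichment times length and -0.039 at the main end. The phospho-Ser2 length, -0.67, was -0.91 with the stricter q-value, -0.34 by position, -0.43 in promoter regions and -0.37 in the gene body, below the all-gene median in all 4. With the stricter q-value, PIK3CA and GSK3B were also called lower in phospho-Ser2 length, GSK3B mostly through regions over GSK3B-DT. The share of all genes called was not counted with the stricter q-value or by position. The cause of these shifts was not tested. No paired analysis was possible because the groups hold 1 library each.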

Other observations

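RPB1 regions of the members were also compared with the phospho-Ser2 regions of the same cells. Of the 53 control RPB1 regions, 27 (50.9%) overlapped a phospho-Ser2 region of the same cells, beside 58.9% of all, and of the 43 knockout RPB1 regions 17 (39.5%) did, beside 58.2% of all. The difference was not tested. At the main starts of PIK3R1 and GSK3B a weak phospho-Ser2 region was listed in both genotypes, with 3.73 and 3.42 at PIK3R1 and 3.59 and 3.34 at GSK3B.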
